A study of Mus musculus with 6 samples.

Results

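The 10 genes studied here belong to antigen presentation, and were followed across 6 libraries of a mouse leukaemia line. They were taken by gene name from the deposited table, which lists 53465 genes, and are Ciita, Cd74, H2-Aa, H2-Ab1, H2-Eb1 and H2-DMa of the MHC class II pathway and H2-K1, H2-D1, B2m and Tapbp of the class I pathway. The cells, Nras(G12D)/MLL-AF9, combine an activated Nras allele with the MLL-AF9 fusion oncogene, and grew in medium with serum, SCF, IL-3 and IL-6. One group of 3 libraries received 100 µM OMP (4'-O-methylpyridoxine, an analog of vitamin B6) for 6 days and the other group of 3 received PBS as Vehicle for the same time. Both groups are the same cultured line, and the labels do not say whether replicates were separate cultures, so the p-values speak only to spread among these 6 libraries, which could be technical. The library totals recovered from the deposited values ran from 3494986 to 4247619 reads. The question is which of these transcripts OMP treatment left at another level.

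MHC class I molecules sit on nearly all nucleated cells and show peptides from inside the cell to CD8 T cells. Their heavy chain, in the mouse H2-K and H2-D, pairs with beta-2-microglobulin, and tapasin holds the empty molecule beside the TAP transporter until a peptide binds. MHC class II molecules show peptides taken up from outside to CD4 T cells, and are made mainly by B cells, dendritic cells and activated macrophages. Their transcription depends on the class II transactivator CIITA, which docks on a complex bound to the X and Y boxes of class II promoters. The invariant chain CD74 guides the new class II molecules to endosomes, where H2-DM exchanges its remnant for a peptide.

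The promoters are shown because the class I members moved in different directions while H2-Aa and H2-Eb1 gave almost no reads. RefSeq promoter windows on GRCm38.p6 were used for 7 of the 10 members, and the other 3 had no entry or were not used. The 250 bases before the annotated start were searched on both strands. Capitals mark matches to 5 motifs, chosen after the windows had been read. These are the kappaB consensus, the interferon response core AANNGAAA, the CRE core TGACG, the X1 box core CTNGNAAC and the CCAAT box, and no match overlapped that of another motif. Of 32851 windows of this length, 7.25% held the kappaB consensus, 21.3% AANNGAAA, 17.8% TGACG, 10.9% CTNGNAAC and 33.8% CCAAT. For H2-K1 the second of 2 annotated starts is shown.
H2-K1 (chr17:34000334-34000583, minus strand): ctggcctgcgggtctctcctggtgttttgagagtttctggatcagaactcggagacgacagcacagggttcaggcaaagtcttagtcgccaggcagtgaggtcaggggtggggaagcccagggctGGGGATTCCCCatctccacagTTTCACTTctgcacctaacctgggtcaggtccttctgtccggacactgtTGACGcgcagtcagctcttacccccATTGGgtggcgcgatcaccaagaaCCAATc
H2-D1 (chr17:35262844-35263093, plus strand): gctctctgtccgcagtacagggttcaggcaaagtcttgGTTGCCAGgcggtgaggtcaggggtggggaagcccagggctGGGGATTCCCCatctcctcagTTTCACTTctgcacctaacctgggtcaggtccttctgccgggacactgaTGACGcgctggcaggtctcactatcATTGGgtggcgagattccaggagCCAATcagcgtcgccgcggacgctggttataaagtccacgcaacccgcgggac
B2m (chr2:122147437-122147686, plus strand): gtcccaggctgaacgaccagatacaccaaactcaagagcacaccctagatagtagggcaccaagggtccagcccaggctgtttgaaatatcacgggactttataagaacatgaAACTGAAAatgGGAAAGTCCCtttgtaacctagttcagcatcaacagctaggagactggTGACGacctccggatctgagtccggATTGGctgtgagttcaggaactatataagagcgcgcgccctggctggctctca
H2-Aa (chr17:34287824-34288073, minus strand): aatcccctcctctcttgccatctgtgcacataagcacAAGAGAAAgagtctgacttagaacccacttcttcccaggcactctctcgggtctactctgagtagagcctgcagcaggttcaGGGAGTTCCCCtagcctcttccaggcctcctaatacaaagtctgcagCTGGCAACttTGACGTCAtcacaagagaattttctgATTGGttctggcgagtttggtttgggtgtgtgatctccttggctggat
H2-Eb1 (chr17:34305617-34305866, plus strand): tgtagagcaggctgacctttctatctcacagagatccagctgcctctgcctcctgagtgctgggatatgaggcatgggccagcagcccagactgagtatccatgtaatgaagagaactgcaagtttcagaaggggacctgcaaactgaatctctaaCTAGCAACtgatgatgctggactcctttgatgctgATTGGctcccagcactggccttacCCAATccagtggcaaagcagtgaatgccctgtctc

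H2-K1 and H2-D1 carried the same 4 elements in the same order. In H2-K1 the kappaB match began 125 bases before the start, the interferon response core 104, the CRE core 55 and the 2 CCAAT boxes 30 and 6 bases before it. In H2-D1 they began 171, 150, 101, 76 and 53 bases before the start, and a local alignment of the 2 windows gave 89.6% identity over 192 columns. H2-D1 also held an X1 core match farther upstream, on the minus strand of the window. B2m held a kappaB match 126, an interferon response core 137, a CRE core 78 and a CCAAT box 53 bases before its start. The class II genes held the X1 core, at 84 bases before the start in H2-Aa and 94 in H2-Eb1, followed by a CCAAT box at 48 and 59. H2-Aa also held matches to the kappaB consensus, the interferon response core and the CRE core. Tapbp held CTNGNAAC and CCAAT but none of the other 3 motifs. The first of 2 windows of H2-DMa held none of the 5, and its second held AANNGAAA and CCAAT. The windows of H2-D1, Tapbp and H2-DMa lie inside the spans given for these genes below, so bases before those spans were not searched. A match describes letters in a window and shows no binding.

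The members divided by level before any comparison between groups. B2m, H2-K1 and H2-D1 ranked 111, 227 and 314 from the top among the 19970 genes above 0, by mean RPKM (reads scaled to gene length and library size) over the 6 libraries. Tapbp ranked 3091, H2-DMa 7075 and Cd74 9224. Ciita and the class II chain genes H2-Aa, H2-Ab1 and H2-Eb1 ranked between 15169 and 18160. B2m and the heavy chain genes were thus among the more abundant transcripts per length, Tapbp was well below them, and the class II chains were near the limit of detection.

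In OMP-treated cells Cd74 and H2-D1 were higher and H2-DMa, H2-K1, B2m and Tapbp were lower. Of the 10 members, 6 passed the filter on low values (RPKM of at least 1 in at least 3 libraries) and were tested with limma on log2(RPKM + 0.5), and all 6 of these passed a Benjamini-Hochberg adjusted p of 0.05, 2 higher and 4 lower. Over all 11020 genes tested 43.0% passed, 15.4% higher and 27.5% lower. For each of these 6 the Vehicle and OMP libraries were fully separated, as they were for 54.5% of all genes tested (19.9% higher and 34.6% lower with OMP). The median log2 fold change of the 6 was -0.19, beside -0.09 over all genes tested. Cd74 passed the filter with at least 1 RPKM in every OMP library and in 2 of the 3 Vehicle libraries. Fewer cells expressing a gene and less RNA per cell cannot be told apart in such bulk samples.

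**Figure D1:**
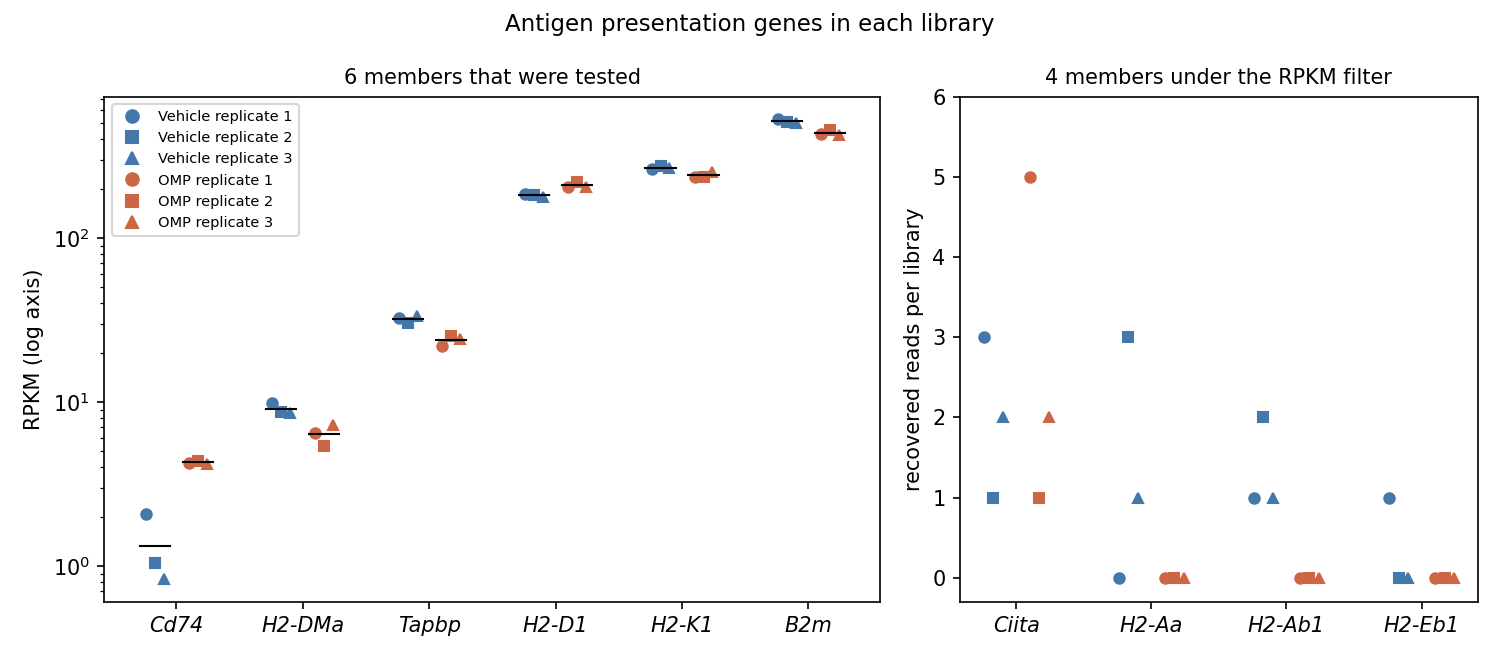
Left, RPKM on a log axis of the 6 members that were tested, and right, reads recovered per library for the 4 members under the filter; each point is a library and black bars are group means (n = 3). Cd74 and H2-D1 lie higher in the OMP libraries, H2-DMa, Tapbp, H2-K1 and B2m lie lower, and H2-Aa, H2-Ab1 and H2-Eb1 have 0 reads in every OMP library.

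The class II transactivator gene Ciita (ENSMUSG00000022504, GRCm38 chromosome 16, 10480059 to 10528418) was barely detected in either group. It gave 3, 1 and 2 reads in Vehicle replicates 1 to 3 and 5, 1 and 2 reads in OMP replicates 1 to 3. Scaled to library totals, the OMP to Vehicle ratio was 1.496 and its exact 95% counting interval ran from 0.455 to 5.23, so a difference was not detectable at this depth. Such intervals cover counting error only, since without molecular identifiers several reads can stem from one molecule. An exon of Ciita overlaps Dexi on the opposite strand, and the strand setting of the counting is not given in the sources used here.

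The class II chain genes were seen only in Vehicle libraries, with at most 3 reads of a gene in any of them. H2-Aa, the alpha chain of I-A (chromosome 17, 34282744 to 34287823), gave 0, 3 and 1 reads in Vehicle and 0 in each OMP library. H2-Ab1, the beta chain of I-A (chromosome 17, 34257689 to 34269419), gave 1, 2 and 1 reads in Vehicle and 0 in each OMP library. H2-Eb1, the beta chain of I-E (chromosome 17, 34305867 to 34316674), gave 1 read in Vehicle replicate 1 and 0 elsewhere. Together the 3 genes had 9 reads of 12076820 in Vehicle and 0 of 10767086 in OMP. A count of 0 over the OMP group allows up to 3 reads, or 0.246 RPKM of H2-Aa, 0.230 of H2-Ab1 and 0.235 of H2-Eb1. The Vehicle means of these genes were 0.285 ± 0.331, 0.273 ± 0.114 and 0.0753 ± 0.130 RPKM (SD, n = 3), close to or under those limits. When genes were tested without a filter on low values, H2-Ab1 passed (log2 fold change -0.62, limma adjusted p = 0.0302) while H2-Aa (adjusted p = 0.251), H2-Eb1 (0.530) and Ciita (0.738) did not. That call of H2-Ab1 rests on 4 reads.

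Cd74, the invariant chain gene, was higher with OMP although the class II chains it escorts were at 0 there. Its level was 2.09, 1.04 and 0.835 RPKM in Vehicle replicates 1 to 3 and 4.26, 4.39 and 4.19 RPKM in OMP replicates 1 to 3. Each OMP library stood above each Vehicle library, and Vehicle replicate 1 stood apart from the other 2. The log2 fold change was 1.45 ± 0.25 SE (limma adjusted p = 0.00206), which is 2.74-fold on the log2(RPKM + 0.5) scale, a scale that understates the change of low genes. It rested on 22 Vehicle reads and 65 OMP reads. Scaled to library totals, that is a 3.31-fold difference, and the exact 95% limits of counting error were 2.02 and 5.65. No 50-base word of the longest coding Cd74 transcript occurred in a transcript of another gene.

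H2-DMa, the alpha chain of the peptide exchange factor H2-DM (ENSMUSG00000037649, chromosome 17, 34119541 to 34139101), was lower with OMP. It stood at 9.81, 8.65 and 8.63 RPKM in Vehicle and 6.44, 5.43 and 7.26 RPKM in OMP. The highest OMP library was below the lowest Vehicle library, and the log2 fold change was -0.48 ± 0.12 SE (limma adjusted p = 0.0117), or 1.39-fold lower. One of its exons overlaps an exon of Brd2 on the opposite strand by 313 bases, and Brd2 itself had means of 94.2 RPKM in Vehicle and 89.1 in OMP. If strand was not used in the counting, reads of the 2 genes cannot be told apart there. Within a library the ratio of Cd74 to H2-DMa was 0.213, 0.120 and 0.0967 in Vehicle and 0.662, 0.809 and 0.578 in OMP. The genes of one pathway thus moved in different directions.

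H2-K1, the heavy chain of H2-K (ENSMUSG00000061232, chromosome 17, 33996017 to 34000347), was slightly lower with OMP. It had 264.0, 273.8 and 267.6 RPKM in Vehicle and 237.3, 235.6 and 252.1 RPKM in OMP. The groups did not overlap, and the log2 fold change was -0.15 ± 0.04 SE (limma adjusted p = 0.0114), or 1.11-fold lower. With median-of-ratios scaling between libraries it was -0.06 and no longer passed (limma adjusted p = 0.212).

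H2-D1, the heavy chain of H2-D (ENSMUSG00000073411, chromosome 17, 35262730 to 35267499), was slightly higher. It had 186.5, 183.5 and 177.5 RPKM in Vehicle and 204.5, 219.8 and 206.1 RPKM in OMP. Every OMP library was above every Vehicle library, and the log2 fold change was 0.20 ± 0.04 SE (limma adjusted p = 0.00417), or 1.15-fold higher. It was higher under every alternative run, by 0.12 to 0.29 on the log2 scale.

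B2m, the light chain shared by all class I molecules (ENSMUSG00000060802, chromosome 2, 122147686 to 122153083), was lower. Its level was 528.5, 509.9 and 503.2 RPKM in Vehicle and 431.8, 453.1 and 425.7 RPKM in OMP. The groups were well separated, and the log2 fold change was -0.23 ± 0.04 SE (limma adjusted p = 0.00112), or 1.18-fold lower. Tapbp, the tapasin gene (ENSMUSG00000024308, chromosome 17, 33915899 to 33929292), had 32.6, 30.2 and 33.4 RPKM in Vehicle and 21.9, 25.2 and 24.2 RPKM in OMP. It was 1.34-fold lower without overlap between groups (log2 fold change -0.43 ± 0.07 SE, limma adjusted p = 0.00141). Tapbp shares exon sequence with Zbtb22 on its own strand (88 bases) and with Gm19412 on the other strand (306 bases), and Gm19412 was listed at 0 in all libraries.

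Ratios within a library do not depend on how libraries are scaled to each other. The ratio of H2-D1 to H2-K1 was 0.706, 0.670 and 0.664 in Vehicle and 0.862, 0.933 and 0.818 in OMP, a mean of 0.680 ± 0.0230 against 0.871 ± 0.0581 (SD, n = 3). The 2 heavy chain genes therefore changed unequally, with every OMP ratio above every Vehicle ratio. Their summed level was 451.0 ± 6.13 RPKM in Vehicle and 451.8 ± 8.81 RPKM in OMP (two-sided exact permutation p = 0.9). Unlike the ratios, this sum does depend on scaling, and its comparison holds for the deposited RPKM only. With median-of-ratios scaling the log2 fold changes were -0.06 for H2-K1 and 0.29 for H2-D1, and with TPM -0.24 and 0.12. The ratio of B2m to that sum was 1.14 ± 0.0302 in Vehicle and 0.967 ± 0.0341 in OMP, lower in 3 of 3 OMP libraries. Tapbp relative to H2-K1 went from 0.120 ± 0.00803 to 0.0984 ± 0.00757. In all 5 such values were compared, and the 4 ratios each had a two-sided exact permutation p = 0.1, the smallest that 3 against 3 libraries can give, or 0.125 after adjustment.

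**Figure D2:**
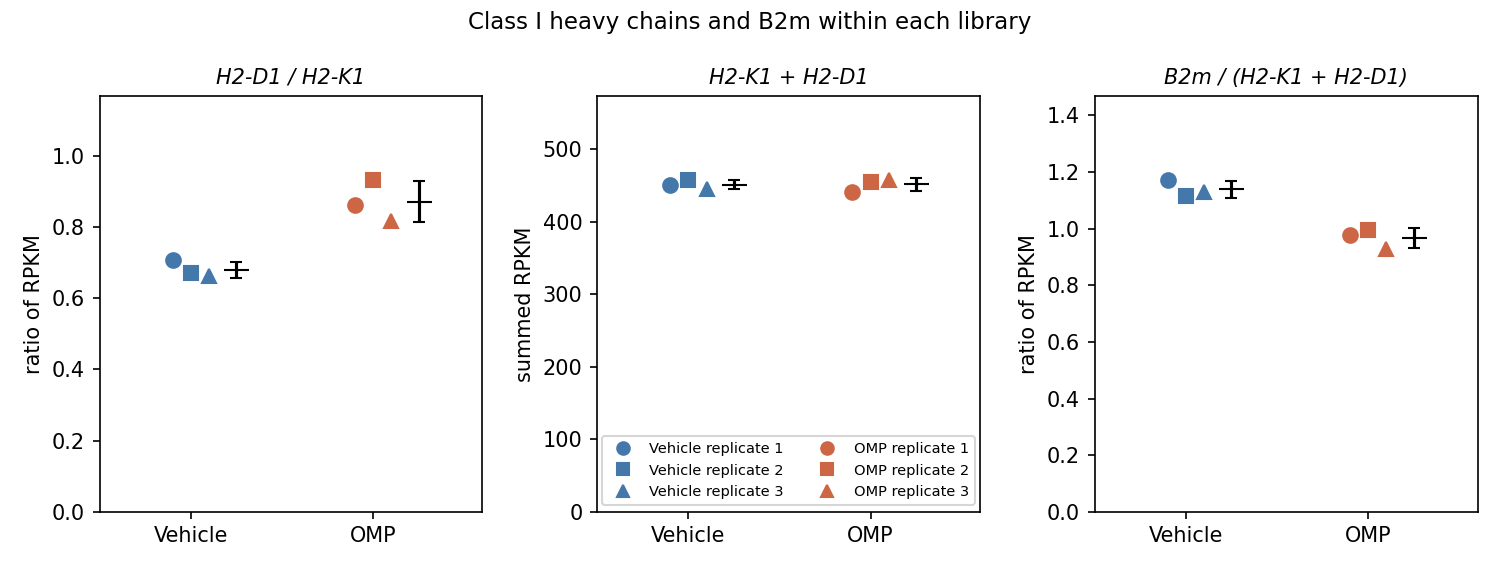
For each library, from left to right, H2-D1 over H2-K1, the sum of H2-K1 and H2-D1 in RPKM, and B2m over that sum, with axes from 0; points are libraries, and black marks are the group mean ± SD (n = 3). The OMP libraries have higher H2-D1 to H2-K1 ratios (0.818 to 0.933 against 0.664 to 0.706) and lower B2m to heavy chain ratios. The sums of deposited RPKM overlap.

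H2 genes are similar in sequence, which bears on how reads are shared out. Of the 50-base words in the longest coding transcript, 8.79% of those of H2-K1 and 14.3% of those of H2-D1 also occurred in a transcript of another gene, and with 100-base words 0% and 4.64%. For Tapbp 599 of 2849 such 50-base words (21.02%) were shared, mostly with Gm19412, and the share was 0% for B2m, H2-DMa, H2-Aa, H2-Ab1 and H2-Eb1. How reads that fit several genes were counted is not given in the sources used here, and the part this plays in the H2-D1 to H2-K1 ratio was not tested.

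The other genes of the pathway came from 12 lists with 117 distinct genes, of which 81 were tested. Of these 19 were higher and 25 lower, or 54.3% beside the 43.0% over all genes, and the median log2 fold change was -0.04. With rescaling to TPM 13 were higher and 30 lower, and with median-of-ratios scaling 21 and 21. These counts include the tested members.

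Among the partners of class II loading, 2 further genes were lower. H2-DMb1, the beta chain of H2-DM, was 1.62-fold lower (33.5 ± 0.497 to 20.6 ± 2.63 RPKM, limma adjusted p = 0.000417). Of its 50-base words 27.2% also occur in H2-DMb2, so reads of the 2 are partly interchangeable. H2-Oa, of the inhibitor H2-O, was 1.40-fold lower but did not pass with limma-voom on recovered reads (adjusted p = 0.0614). H2-DMb2 (limma adjusted p = 0.558) and H2-Ob (0.924) did not pass. Of 6 tested genes of this list, Cd74 was higher and 3 were lower, with a median log2 fold change of -0.35. That is 66.7% called, beside 43.0% over all genes.

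Factors that bind class II promoters were measured well above the level of the class II chains. Rfx5, which binds the X box with CIITA's complex, had 4.15 ± 0.525 RPKM in Vehicle and 4.96 ± 0.668 in OMP (limma adjusted p = 0.224). Nfya, a subunit of the CCAAT-binding NF-Y, was 1.22-fold lower, and Creb1, which binds CRE sites, was 1.46-fold lower. Nfyb did not pass (limma adjusted p = 0.0717). Of 7 tested genes 0 were higher and 2 lower, or 28.6% called beside 43.0% over all genes. The remaining class II chain gene of the list with reads, H2-Eb2, had 4 reads in Vehicle and 0 in OMP.

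Endosomal proteases split. Ctss, cathepsin S, which trims the invariant chain, fell 2.58-fold from 25.4 ± 1.54 to 9.53 ± 0.523 RPKM (limma adjusted p = 4.97e-06). Ctsd, cathepsin D, rose 1.75-fold from 158.6 ± 5.97 to 278.6 ± 4.30 RPKM, and Ctsl, cathepsin L, rose 1.49-fold. Ifi30, a thiol reductase that unfolds antigens, stood at 26.6 ± 3.22 and 26.2 ± 4.43 RPKM (limma adjusted p = 0.886). Of 10 tested genes 3 rose and 2 fell. Among genes linked to class II turnover and membrane organisation, the tetraspanin gene Cd9 rose 2.31-fold, Cd63 rose 1.37-fold and Cd82 fell 1.33-fold. In that list 3 of 4 tested genes rose and 1 fell, beside 43.0% called over all genes.

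Transcripts of class I peptide supply moved in both directions. Psmb9 and Psmb8, catalytic subunits of the immunoproteasome, were 2.07-fold lower (22.8 ± 1.75 to 10.7 ± 1.04 RPKM) and 1.73-fold lower (66.9 ± 1.71 to 38.5 ± 0.755 RPKM). Psme2, of the PA28 activator, was 1.51-fold lower, while Psme1, of the same activator, was 1.10-fold higher (limma adjusted p = 0.0289). Psmb10, the third such subunit, was 1.15-fold higher (limma adjusted p = 0.0346), a call that was lost with TPM rescaling (0.180), without a filter (0.0638), with limma-voom (0.0719), and without Vehicle replicate 2 (0.0985), Vehicle replicate 3 (0.0908) or OMP replicate 1 (0.0917). All 5 genes of the immunoproteasome list passed, 2 higher and 3 lower, beside 43.0% called over all genes.

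The transporter that brings these peptides into the endoplasmic reticulum was lower in both subunits. Tap1 was 1.53-fold lower (19.97 ± 0.169 to 13.0 ± 1.90 RPKM, limma adjusted p = 0.00164). Tap2 was 1.21-fold lower, and missed the threshold with median-of-ratios scaling (limma adjusted p = 0.0506). Tapbpl, a tapasin relative, had 16.8 ± 0.492 and 16.8 ± 0.977 RPKM (limma adjusted p = 0.945). Hspa5, a general chaperone, rose 1.41-fold. Of 13 tested genes of class I loading 2, Hspa5 and Erap1, rose and 3, Tap1, Tap2 and Tapbp, fell. That is 38.5% called, beside 43.0% over all genes.

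**Figure D3:**
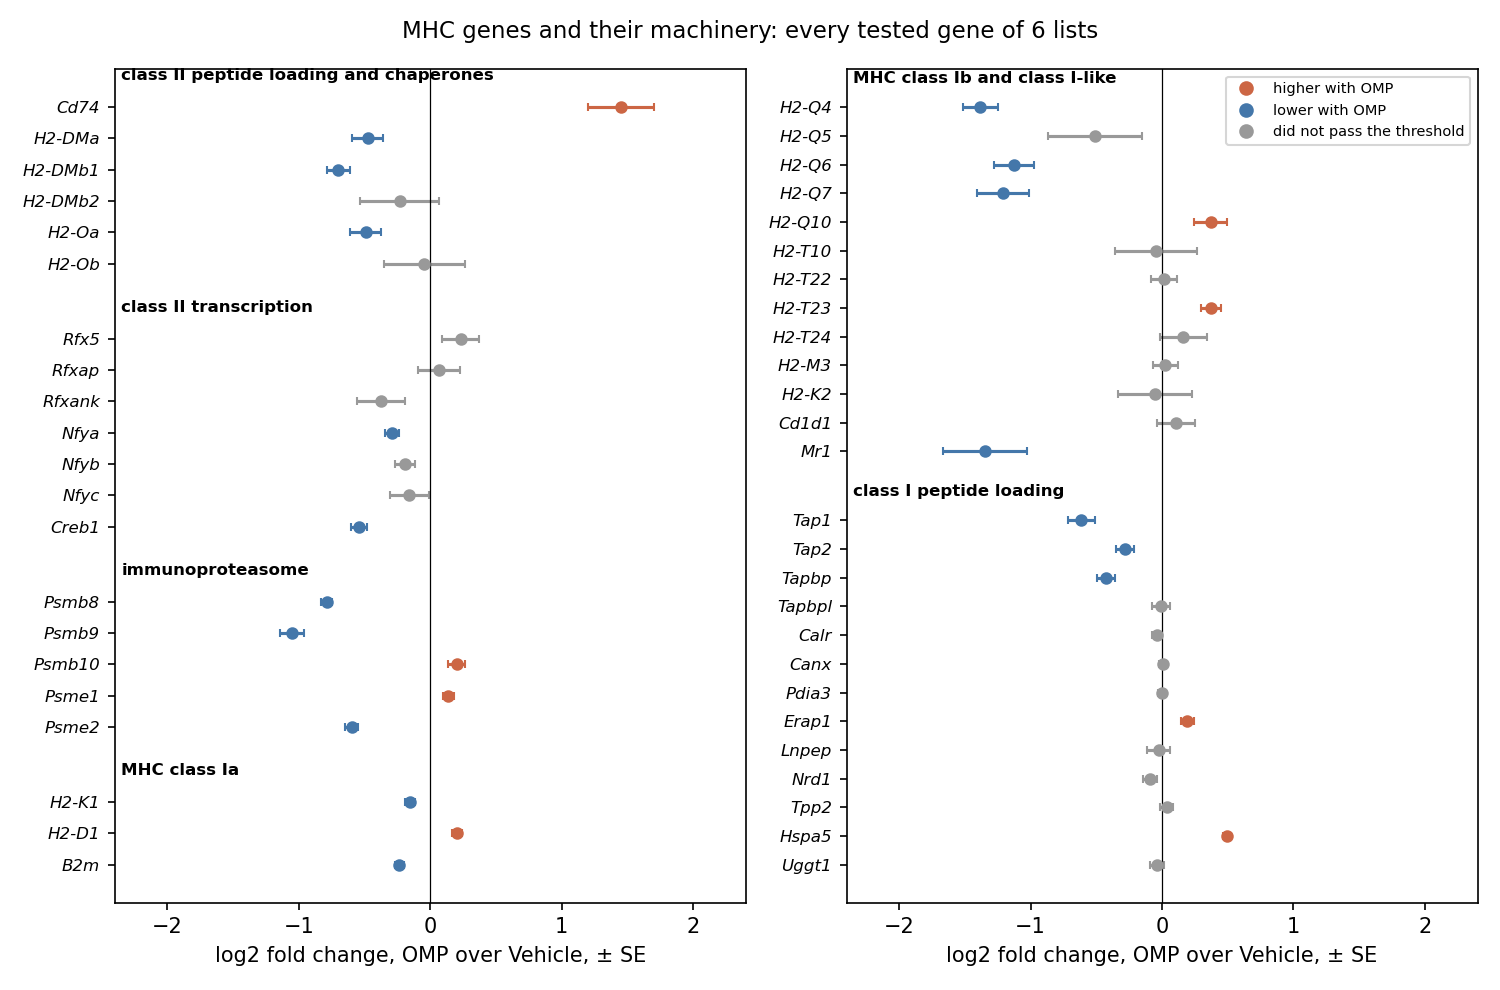
Log2 fold change, OMP over Vehicle, with its SE for every tested gene of 6 lists, coloured by the limma call at an adjusted p of 0.05. H2-Q4, H2-Q6, H2-Q7, Psmb9, Psmb8, Tap1 and H2-DMb1 lie to the left, and Cd74 lies to the right.

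In the nonclassical Q region of class I, H2-Q4, H2-Q6 and H2-Q7 were lower and H2-Q10 was slightly higher. H2-Q4 was 2.60-fold lower (11.6 ± 0.313 to 4.21 ± 0.839 RPKM, limma adjusted p = 0.000113), H2-Q7 2.31-fold and H2-Q6 2.18-fold. H2-Q10 was 1.29-fold higher (limma adjusted p = 0.0411), on 140 reads in Vehicle and 164 in OMP, and H2-Q5 did not pass (0.285). The value of H2-Q10 was not followed through the alternatives, and its shared words were not counted. Between 34.9% and 39.2% of the 50-base words of H2-Q4, H2-Q6 and H2-Q7 occur in transcripts of other genes, which leaves the split of reads among them uncertain. H2-T23, which encodes Qa-1, was 1.29-fold higher, with 29.8% of such words shared. H2-T22 (limma adjusted p = 0.933) and H2-M3 (0.849) did not pass. Of 13 tested genes of class Ib and class I-like molecules 2 were higher and 4 lower, or 46.2% called beside 43.0% over all genes.

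Among the known activators of MHC transcription, Irf8 fell 5.26-fold, from 38.6 ± 2.02 to 6.96 ± 0.754 RPKM. Irf1, an interferon-induced activator of class I genes, had 10.0, 11.4 and 11.7 RPKM in Vehicle and 6.69, 6.72 and 8.81 in OMP, and was 1.47-fold lower (limma adjusted p = 0.00655). Nlrc5, the class I transactivator, went from 2.91 ± 0.201 to 2.21 ± 0.348 RPKM, which did not pass (limma adjusted p = 0.141) but did with limma-voom on recovered reads (0.0215). Spi1, which encodes PU.1, was 1.13-fold higher, a call lost with TPM rescaling (limma adjusted p = 0.0536). Nfkb1 was 1.16-fold lower, a call lost with median-of-ratios scaling (limma adjusted p = 0.0501). Relb was 1.49-fold higher, from 4.13 ± 0.760 to 6.41 ± 1.14 RPKM (limma adjusted p = 0.0223). Irf4 was under the filter with 12 and 7 reads. Of 9 tested genes 2 were higher and 3 lower, or 55.6% called beside 43.0% over all genes.

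Markers of other cells that express class II were counted beside these values. The B cell markers Ms4a1, Pax5 and Ebf1, the dendritic cell markers Clec9a, Cd209a, Ccr7 and Siglech, and the macrophage markers C1qa, C1qb, C1qc and Mertk were at 0 reads in all 6 libraries. Of 12 B cell markers 8 were above 0, and the 1 that was tested, Cd37, rose from 66.3 ± 4.44 to 83.1 ± 5.66 RPKM. Cd37 made up nearly all of the summed list, which ran from 64.2 to 72.0 RPKM in Vehicle and from 77.4 to 87.6 in OMP. The other B cell markers were under the filter. Of 12 conventional dendritic markers 8 were above 0, 1 rose and 1 fell, with sums of 9.62 to 10.8 and 12.3 to 15.1 RPKM. Of 9 plasmacytoid markers 7 were above 0, 1 rose and 2 fell, with sums of 130.2 to 152.4 and 180.3 to 184.0 RPKM, and the one that rose, Cox6a2, went from 58.1 ± 9.12 to 111.4 ± 2.44 RPKM. Of 15 macrophage and monocyte markers 10 were above 0, 4 rose and 1, Ccr2, fell. Those that rose were Cd14 (23.6 ± 1.02 to 76.0 ± 2.64 RPKM), Fcgr1, Lyz2 and Cd68. The sums overlapped and were mostly Ly6c2, which had 2619.5 ± 28.2 RPKM in Vehicle and 2520.9 ± 64.3 in OMP and did not pass. Of 12 neutrophil markers 10 rose and 1 fell, with sums of 2673 to 2785 RPKM in Vehicle and 8952 to 9467 in OMP. Of 11 markers of the leukaemic progenitors 2 rose and 6 fell, with sums of 1663 to 1709 RPKM in Vehicle and 997.4 to 1035 in OMP. Elane was the largest part of that sum, with 992.6 ± 23.2 RPKM in Vehicle and 369.7 ± 21.0 in OMP. Hoxa9, Hoxa10 and Meis1 did not pass (limma adjusted p = 0.750, 0.378 and 0.221). Over all genes tested 15.4% were higher and 27.5% lower. These shifts stand beside the higher Cd74 and H2-D1 and the lower H2-DMa, H2-K1, B2m and Tapbp, and their part in them was not tested.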

How the data were processed

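Poly(A)-selected RNA was sequenced from 3 Vehicle and 3 OMP libraries, per the labels' protocols. The authors deposited RPKM, 1 column per library. STAR 2.5.3a, featureCounts 1.6.3, Trimmomatic 0.36 and FastQC 0.11.5 are the tools, and mm10 (GRCm38) the build, named in the submitters' processing notes. How reads fitting several genes were treated, whether counting used strand, and which annotation release was used is not given in the sources used here.

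The RPKM kept the steps of whole reads: for 99.99% of the 19970 genes above 0, a gene length and library total gave whole reads within a relative tolerance of 1e-06. The 95% counting intervals and the floor of 3 reads come from these.

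Genes reaching 1 RPKM in 3 or more of the 6 libraries were tested with limma 3.58.1 in R 4.3.3 on log2(RPKM + 0.5), without covariates, with a prior variance following the mean, two-sided, adjusted by Benjamini-Hochberg over all genes tested, at a threshold of 0.05. The procedure was tested on simulated data. Members and gene lists were chosen with earlier results of these data known. Named genes were all 10 members, the 3 tested genes with the smallest p in each of 12 lists, and genes fixed by name, 54 in all. H2-Q5, H2-Q10, Psme1, Erap1, Relb and Cox6a2 were added after their values were seen. So were Cd37, Cd14, Fcgr1, Lyz2, Cd68, Ccr2, Ly6c2, Elane, Hoxa9, Hoxa10 and Meis1. None of these was followed through the alternatives. Alternatives were a pseudocount of 1 or 0.1, a filter at 5 RPKM or none, TPM, median-of-ratios and quantile scaling, a robust prior, limma-voom on recovered reads, a replicate block and leaving out each library. Exact permutation tests used scipy in Python. Positions came from GENCODE M21 on GRCm38 and promoters from RefSeq on GRCm38.p6. Libraries of a group differed by more than sampling noise (chi-square per degree of freedom 1.18 to 1.57) and all were kept as separate replicates. Some listed genes are not reported here by name. Clauses on what a gene does are background.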

Additional observations from a re-analysis of the deposited data

How the results depend on the processing

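Of the 6 tested members all kept their direction under every alternative that could be fitted, and 94 of 95 values from alternatives stayed on the same side of the threshold. The exception was H2-K1 with median-of-ratios scaling (-0.06). The number of members called was 5 to 7, where 7 adds H2-Ab1 without a filter and 5 came from the filter at 5 RPKM, which leaves Cd74 untested, and from median-of-ratios scaling. Leaving out each library gave 6 members, 40 to 41 genes of the pathway lists and 3968 to 4241 of all genes. Among other named genes 610 alternative values kept their side, 21 lost it and 3 gained it, and 0 reversed. Over all genes 4735 were called, 1702 higher and 3033 lower. The split moved with scaling, to 2370 and 2237 with median-of-ratios scaling, 2244 and 2321 with quantile normalization and 1215 and 3973 with TPM, while the median log2 fold change of all genes moved from -0.089 to -0.0056, -0.0075 and -0.175. Why the split moved was not tested. Whether libraries with the same replicate number share a culture or preparation is not known. Their deviations from the group means had correlations of -0.0024, 0.015 and 0.0069. These cannot settle it, since counting noise also lowers such correlations. With the replicate block 4445 genes, 43 pathway genes and 6 members were called. Ratios within a library, recomputed without each library in an alternative chosen after seeing the data, moved by less than their spread. Depth limits Ciita and the class II chains, each with under 10 reads in a group.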

Other observations

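Signals that accompany antigen presentation moved in both directions. Cd80, a costimulatory ligand of CD28, had 4.72, 4.60 and 4.84 RPKM in Vehicle and 18.2, 21.7 and 20.7 RPKM in OMP, a 3.95-fold rise (limma adjusted p = 1.62e-06). Its partner Cd86 gave 7 reads in Vehicle and 8 in OMP, and Cd40 gave 0 and 1, so neither was tested. The adhesion genes Icam1, 1.23-fold higher, and Cd48, 1.20-fold lower, passed narrowly, and each lost its call under some alternatives. Of 5 tested costimulation genes 2 were higher and 1 lower, beside 43.0% called over all genes.

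The receptor for interferon gamma, the main inducer of both MHC classes, was lower in 1 of its chains. Ifngr1 had 173.2, 168.5 and 173.0 RPKM in Vehicle and 88.9, 87.2 and 83.2 RPKM in OMP, a 1.98-fold fall (limma adjusted p = 8.54e-07). Jak1, a kinase bound to that receptor, was 1.22-fold higher. Ifng itself was at 0 reads in every library. Of 8 tested genes of the interferon gamma list 1 was higher and 2 lower, or 37.5% called beside 43.0% over all genes.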
